A study of Mus musculus with 6 samples.

Results

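The orosomucoid genes Orm1, Orm2 and Orm3 and the lipocalin gene Lcn2 were compared between cGK1-KO and control mouse liver. They were chosen by gene symbol, with earlier results of these data known, and the gene lists below were chosen likewise. Shares of all genes given beside counts are therefore a background and not a test. Each of the genes had 1 probe set on the array, so that 4 of the 22180 genes tested are described. Total RNA of whole liver was hybridised to Affymetrix arrays of the whole-transcript type, with 1 array for each sample. The 3 knockout samples came from male C57BL/6N mice, aged 2 months, that lack the cGMP-dependent kinase cGK1, the product of Prkg1, and in which smooth muscle has the kinase back through a rescue. The 3 control samples came from male C57BL/6N mice of the same age, which the sample labels call wild type. The promoter that drives the rescue, the deleted exon and the number of mice behind each sample are not given in the sources used here. The question was how the loss of cGK1 outside smooth muscle alters gene expression in the liver.

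Orosomucoids, also called alpha-1-acid glycoproteins, are small glycoproteins of the lipocalin fold that hepatocytes secrete into plasma, where they bind basic and neutral lipophilic molecules. Lipocalin 2 belongs to the same fold family and binds bacterial siderophores, the iron chelators by which bacteria take up iron. In rodents the orosomucoid genes and Lcn2 are induced in hepatocytes during the acute phase response, through interleukin 6 and STAT3, interleukin 1 and NF-kB, C/EBP factors and, for the orosomucoids, glucocorticoids. Lipocalin 2 is also a protein of neutrophil granules and is made by activated macrophages.

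The sequences upstream of the genes are shown because the rodent orosomucoid promoter is known to respond to glucocorticoids and C/EBP factors. In the gene order of the mouse assembly GRCm38.p6, Orm1, Orm3 and Orm2 stand next to each other on chromosome 4 with no other protein-coding gene between them, and Lcn2 lies on chromosome 2. The sequences below are RefSeq sequences of GRCm38.p6, written 5′ to 3′ on the strand of the gene, and end before the annotated transcript start. They cover chr4:63362199-63362448 on the plus strand for Orm2, chr4:63355908-63356068 on the plus strand for Orm3 and chr2:32387740-32387989 on the minus strand for Lcn2. Capitals mark the C/EBP motif, searched as TTGCNNAA, the glucocorticoid receptor half-site, searched as AGAACA, and the TATA box, searched as TATAAAA.
Orm2: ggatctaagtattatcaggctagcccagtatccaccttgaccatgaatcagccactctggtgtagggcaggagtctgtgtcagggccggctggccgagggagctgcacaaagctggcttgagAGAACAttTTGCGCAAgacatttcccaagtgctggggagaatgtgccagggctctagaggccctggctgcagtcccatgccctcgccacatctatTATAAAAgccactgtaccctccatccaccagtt
Orm3: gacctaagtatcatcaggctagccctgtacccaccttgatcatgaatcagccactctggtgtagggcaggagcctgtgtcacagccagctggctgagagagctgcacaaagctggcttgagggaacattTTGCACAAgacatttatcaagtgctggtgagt
Lcn2: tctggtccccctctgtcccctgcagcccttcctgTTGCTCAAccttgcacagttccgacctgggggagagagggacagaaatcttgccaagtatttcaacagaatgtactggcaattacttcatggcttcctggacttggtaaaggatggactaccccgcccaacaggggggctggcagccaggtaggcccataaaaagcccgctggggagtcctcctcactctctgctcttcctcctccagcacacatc

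Each motif was searched on both strands in the 250 bases before the transcript start used for numbering. For Orm3 the gene annotation begins inside this window, after base -90, so its printed stretch stops there. TTGCNNAA was present upstream of Orm2 as TTGCGCAA at bases -120 to -113, upstream of Orm3 as TTGCACAA at -121 to -114 and upstream of Lcn2 as TTGCTCAA at -216 to -209, and in 9.56% of 32851 such windows of all genes. AGAACA was present upstream of Orm2, at -128 to -123, just before the C/EBP letters and not overlapping them, and was not found in the windows of Orm3 and Lcn2. It occurred in 16.1% of all windows. TATAAAA was found at -33 to -27 for Orm2 and at -29 to -23 for Orm3, and in 4.98% of all windows. For Orm3 it lies outside the printed stretch and inside the annotated gene. The letters TTCNNNGAA (STAT3) and GGGNNTTCC (NF-kB) were in 7.02% and 4.98% of all windows and in none of these 3 windows. Other forms of STAT3 and NF-kB sites, also of another length, were not searched, so their absence is not shown. The full 250-base windows of Orm2 and Orm3 were 85.5% identical in a global alignment (218 identical positions, 27 mismatches and 10 gap positions), against 45.5% for Orm2 and Lcn2. A match of letters is a description and not a measured binding site.

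Values below are log2 RMA expression, in which a difference of 1 is a 2-fold difference, and n = 3 per group throughout. Array medians were 3.11 to 3.16 and maxima 13.49 to 13.63. Correlations across genes, which are no replicates, were 0.978 to 0.983 for pairs of knockout arrays and 0.989 to 0.990 for pairs of control arrays. Knockout arrays thus differed more from each other. Pairs of a knockout and a control array also lay at 0.978 to 0.983, so by this measure knockout arrays were no more alike than arrays of different groups. The median gene had a standard deviation of 0.193 over the knockout arrays and of 0.146 over the control arrays. The targeted gene Prkg1 was dim, at 3.19 ± 0.14 in the knockout livers and 3.08 ± 0.21 in the control livers (SD), and does not check the genotype labels here because the deleted exon is unknown. Of 22180 genes, 0 passed an adjusted p of 0.05 in limma (0%), while 2334 lay at an unadjusted p under 0.05 (10.5%), 1122 higher and 1212 lower in the knockout.

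All 4 genes lay higher in the knockout group than in the control livers, by 13.0-fold for Lcn2, 11.0-fold for Orm2, 2.90-fold for Orm3 and 1.61-fold for Orm1. In each of the 4 genes every knockout array lay above every control array. None passed the threshold of 0.05 for the limma p adjusted over all genes. Groups that did not overlap, with the knockout higher, occurred in 7.61% of all genes. Each of the 4 genes was also at an unadjusted p under 0.05, which 5.06% of all genes were with the knockout higher. In whole tissue, more cells of a type and more RNA per cell cannot be told apart.

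**Figure D1:**
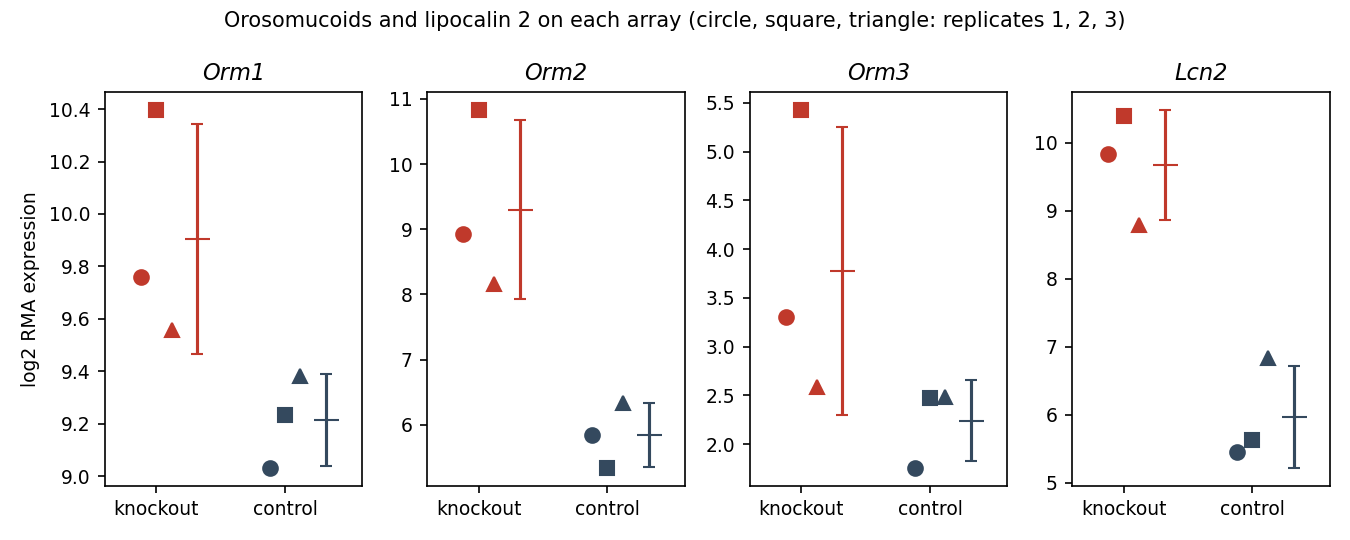
Log2 RMA expression (y axis, with its own range in each panel) of Orm1, Orm2, Orm3 and Lcn2 on the 3 knockout and 3 control arrays. Symbols are single arrays, and the bars beside them are the group mean ± SD. Knockout replicate 2 (square) was the highest array in all 4 genes, and the gap between the groups was 1.97 for Lcn2 but 0.10 for Orm3.

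Orm2, one of the orosomucoid genes expressed in liver, had log2 values of 8.92, 10.83 and 8.16 in knockout replicates 1 to 3, against 5.85, 5.34 and 6.33 in control replicates 1 to 3. The lowest knockout array was 1.83 above the highest control array. The means were 9.30 ± 1.38 in the knockout livers and 5.84 ± 0.49 in the control livers (SD). The knockout arrays thus spread more than the controls, and more than in 99.9% of genes. The log2 difference was 3.46 (SE 0.57), and its 95% confidence interval of 2.18 to 4.75 corresponds to 4.53- to 26.9-fold. Limma gave an adjusted p of 0.139. The difference was the fourth-largest of all 22180 genes in the direction of higher expression.

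Orm1 had log2 values of 9.76, 10.40 and 9.56 in knockout replicates 1 to 3, against 9.03, 9.23 and 9.38 in control replicates 1 to 3. Here the lowest knockout array was only 0.18 above the highest control array. The means were 9.90 ± 0.44 in the knockout livers and 9.22 ± 0.18 in the control livers, and the log2 difference was 0.69 (SE 0.21; 95% confidence interval 0.21 to 1.17). That is 1.15- to 2.26-fold, and limma gave an adjusted p of 0.343. Orm1 was thus bright in both groups and differed by the least of the 4 genes.

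Orm3 was dim, with 3.31, 5.43 and 2.59 in knockout replicates 1 to 3, against 1.76, 2.47 and 2.48 in control replicates 1 to 3. All control arrays and knockout replicate 3 lay under the median probe set of the array (3.11), so the size of the difference is uncertain. Knockout replicate 2 alone lay well above that level. The means were 3.77 ± 1.48 in the knockout livers and 2.24 ± 0.42 in the control livers, with a log2 difference of 1.54 (SE 0.60; 95% confidence interval 0.19 to 2.88). Limma gave an adjusted p of 0.418. Orosomucoid genes are close in sequence and their probes may cross-hybridise, so the values of Orm1, Orm2 and Orm3 may not be independent.

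Lcn2 had log2 values of 9.83, 10.39 and 8.79 in knockout replicates 1 to 3, against 5.45, 5.62 and 6.83 in control replicates 1 to 3. The groups were 1.97 apart at their nearest arrays, which were knockout replicate 3 and control replicate 3. The means were 9.67 ± 0.81 in the knockout livers and 5.97 ± 0.75 in the control livers, so that the spread was similar in both. The log2 difference was 3.70 (SE 0.44), with a 95% confidence interval of 2.72 to 4.69, or 6.58- to 25.8-fold. Limma gave an adjusted p of 0.0674, the fourth-smallest p of all genes. The exact two-sided permutation test gave p = 0.1 for each of the 4 genes, the smallest p that 3 against 3 arrays allow.

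**Figure D2:**
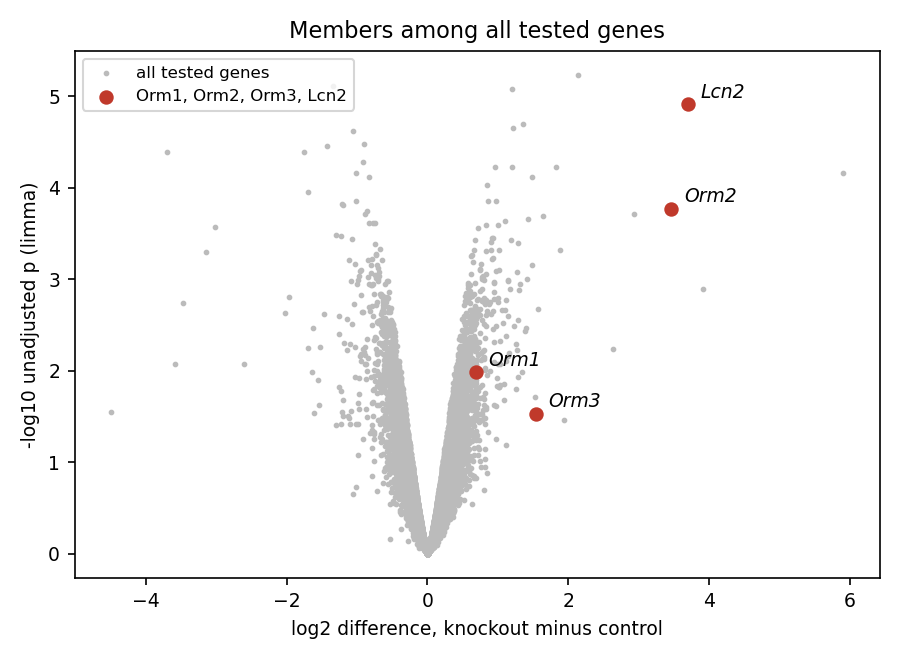
Log2 difference, knockout minus control (x axis), against -log10 of the unadjusted limma p (y axis) for the 22180 tested genes, with the 4 described genes in red. Lcn2 (3.70) and Orm2 (3.46) had the third- and fourth-largest positive differences, and Orm1 (0.69) ranked 183 by difference.

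The order of the knockout arrays was the same in all 4 genes, with replicate 2 highest, replicate 1 next and replicate 3 lowest. Above the control mean, knockout replicates 1, 2 and 3 lay by 3.08, 4.99 and 2.32 for Orm2 and by 3.87, 4.42 and 2.82 for Lcn2. For Orm1 the excess was 0.54, 1.18 and 0.34, and for Orm3 it was 1.07, 3.19 and 0.35. Orm1 and Orm3 were therefore close to the controls in knockout replicate 3, while Orm2 and Lcn2 were not.

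The sizes depended on single arrays. Without knockout replicate 2 the log2 difference was 2.70 for Orm2 (6.50-fold), 0.71 for Orm3 (1.64-fold), 0.44 for Orm1 and 3.345 for Lcn2. Without knockout replicate 3 it was 4.04 for Orm2 (16.4-fold, limma adjusted p = 0.0191), 4.14 for Lcn2 (17.7-fold, adjusted p = 0.00569), 2.13 for Orm3 (4.38-fold, adjusted p = 0.180) and 0.86 for Orm1 (adjusted p = 0.176). Orm2 and Lcn2 thus passed the threshold without that array, as did 0.298% of all genes in either direction and 0.135% with the knockout higher. Lcn2 also passed without control replicate 3 (4.13, limma adjusted p = 0.0406), while Orm2 did not (adjusted p = 0.296). Without knockout replicate 1 or 2, or control replicate 1 or 2, neither passed. The limma adjusted p was then 0.108 to 0.324 for Lcn2 and 0.108 to 0.597 for Orm2. Without control replicate 1 the 95% confidence interval of Orm3 reached below 0 (-0.30).

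**Figure D3:**
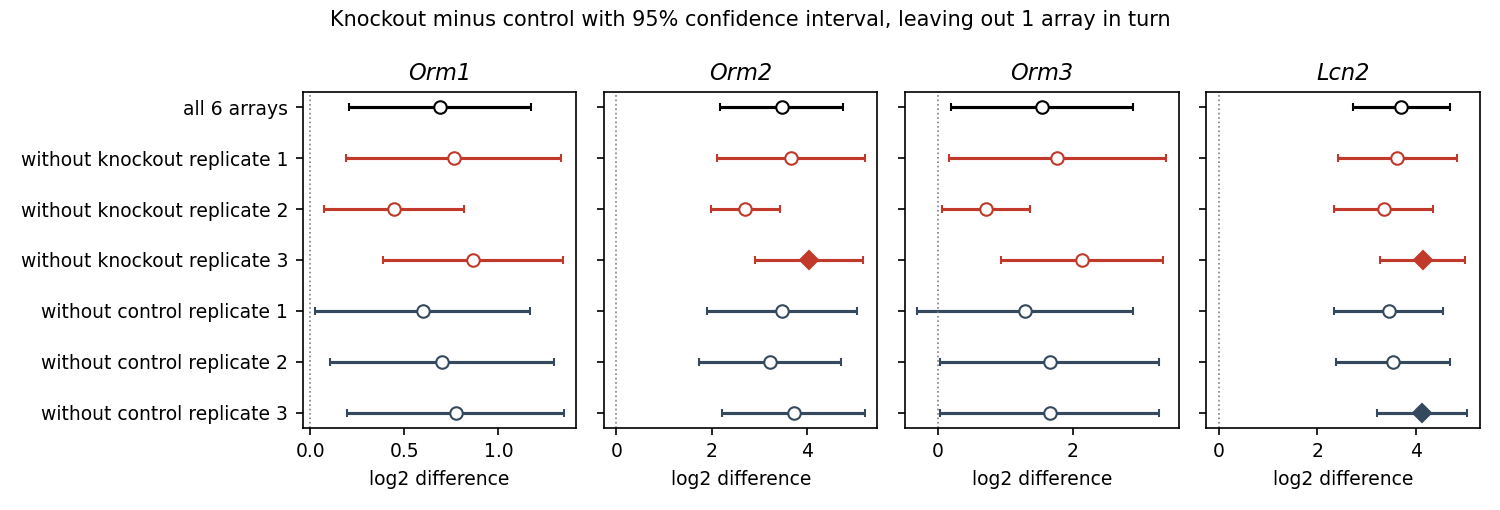
Log2 difference, knockout minus control (x axis), with its 95% confidence interval, for all 6 arrays and with 1 array left out in turn (rows). Filled diamonds mark an adjusted p under 0.05 and open circles do not pass it. Lcn2 stayed between 3.345 and 4.14, while Orm3 ranged from 0.71 to 2.13.

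Whether the genes differed in the size of their response was tested with the log2 ratio of 2 genes on the same array, compared between the groups over 6 pairs. The difference of Orm2 was larger than that of Orm1 by 2.77 and larger than that of Orm3 by 1.93, and that of Lcn2 was larger than that of Orm1 by 3.01 and that of Orm3 by 2.17. In these 4 pairs the knockout and control ratios did not overlap (exact permutation p = 0.1, the smallest possible, adjusted p = 0.15 over the 6 pairs). Orm3 exceeded Orm1 by 0.85 with overlapping groups (exact permutation p = 0.3, adjusted p = 0.36). Lcn2 exceeded Orm2 by 0.24, also with overlapping groups (exact permutation p = 0.6). Since 3 against 3 arrays cannot reach 0.05, none of these pairs can pass the threshold. Orm3 lay under the median probe set on the control arrays and on knockout replicate 3, which can compress its difference, so the values against Orm3 do not show a different size of response.

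The log2 ratio of Orm2 to Orm3 was nearly the same on the 3 knockout arrays, with a standard deviation of 0.11, against 0.65 on the control arrays. Orm3 was dim on all control arrays and also on knockout replicate 3. The log2 ratio of Orm1 to Orm2 had a standard deviation of 0.94 on the knockout arrays and 0.45 on the control arrays. As a description over the 6 arrays, which fall into 2 groups, Pearson's r was 0.956 for Orm1 and Orm2, 0.976 for Orm1 and Orm3, 0.889 for Orm2 and Orm3, and 0.966 for Orm2 and Lcn2. The lowest r was that of Orm3 and Lcn2, at 0.803.

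The genes beside the orosomucoids on chromosome 4 did not show differences of this size. On the side of Orm1 the nearest protein-coding genes are Col27a1 (log2 difference -0.16, SE 0.19), Kif12 (0.07, SE 0.23) and Ambp (0.26, SE 0.13), and on the side of Orm2 they are Akna (-0.19, SE 0.15), Whrn (-0.16, SE 0.13) and Atp6v1g1 (-0.12, SE 0.13). Only Ambp, which encodes the lipocalin alpha-1-microglobulin, had groups that did not overlap, at 10.89, 11.14 and 10.93 in the knockout arrays, against 10.78, 10.66 and 10.75 in the control arrays (limma adjusted p = 0.521). Among the 3 nearest protein-coding genes on each side of Lcn2 the differences lay between -0.46 (Slc25a25) and 0.17 (Ciz1), and all of them had overlapping groups. These neighbours were taken by position and not by their values.

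Other genes of the lipocalin family had differences near 0, but many were dim. Of 22 listed, 19 were measured, 8 with a positive difference and a median of -0.03, against a median of 0.00108 over all genes. On every array 8 of the 19 lay under 3.11, and the list had a median of 2.87 over the control means, so a difference could hardly show in many of them. At an unadjusted p under 0.05 there were 0 higher and 2 lower (backgrounds 5.06% and 5.46%), both odorant-binding protein genes that were dim on every array, Obp2a (-0.62, SE 0.19) and Obp1a (-0.55, SE 0.20). Ambp (0.26) was followed by the epididymal lipocalin genes Lcn10 (-0.24) and Lcn8 (-0.40) and by Apod (0.20), which encodes a lipid-binding apolipoprotein.

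Genes of proteins reported to act with lipocalin 2 differed by much less than Lcn2 itself. Mmp9 encodes a gelatinase reported to form a complex with human lipocalin 2. It lay at 3.66, 3.87 and 3.58 in the knockout arrays, against 3.05, 3.34 and 3.34 in the control arrays (log2 difference 0.46, SE 0.15, limma adjusted p = 0.346). Bdh2, reported to take part in the synthesis of a mammalian siderophore, differed by -0.37 (SE 0.19), with overlapping groups. The receptor genes Slc22a17 (0.01, SE 0.13), Lrp2 (0.11, SE 0.12) and Mc4r (0.29, SE 0.19) did not pass the unadjusted p either, and Lrp2 and Mc4r were dim on every array.

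**Figure D4:**
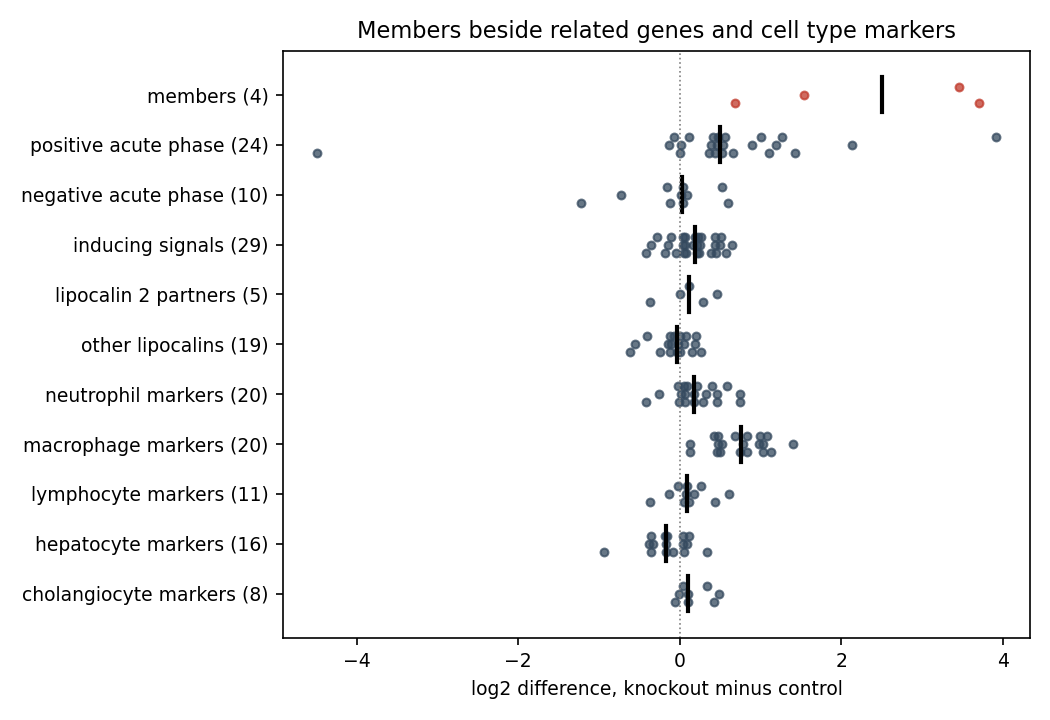
Log2 difference, knockout minus control (x axis), of each measured gene (points) in the described set and in 10 gene lists, with the number of measured genes in brackets and the median as a black bar. The positive acute phase genes (median 0.50) and macrophage markers (0.76) lay to the right of 0, and the other lipocalins lay around it.

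Other positive acute phase genes, whose products increase in inflammation, mostly lay higher too. Of 28 listed, 24 were measured, 21 with a positive difference and a median of 0.50. At an unadjusted p under 0.05 there were 17 higher and 1 lower, and 17 had knockout arrays all above the control arrays (backgrounds 5.06%, 5.46% and 7.61%). The strongest were Apcs, encoding serum amyloid P (2.14, SE 0.23, limma adjusted p = 0.0613), the protease inhibitor gene Serpina3n (1.10, SE 0.19), the metallothionein genes Mt2 (1.42, SE 0.24) and Mt1 (1.19, SE 0.22), and the inter-alpha-trypsin inhibitor genes Itih3 (0.90, SE 0.17) and Itih4 (1.01, SE 0.21). Saa2, a serum amyloid A gene singled out after its values were seen, was the only gene of the list with a difference above those of Lcn2 and Orm2 (3.91, SE 0.86). Hamp, which encodes the iron hormone hepcidin and was singled out likewise, had the only negative difference at an unadjusted p under 0.05 (-4.49, SE 1.72, groups overlapping). It lay at 3.30, 5.92 and 12.055 in the knockout arrays, against 11.12, 11.77 and 11.84 in the control arrays. Knockout replicate 3 thus lay above every control array. Without knockout replicate 2 the count of the list was 12 higher (background 6.12%), and without knockout replicate 3 it was 16 (background 5.97%).

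The negative acute phase genes, whose proteins decrease in inflammation, had no common direction. Of 10 measured, 6 had a positive difference, the median was 0.02, and at an unadjusted p under 0.05 there were 1 higher and 2 lower (backgrounds 5.06% and 5.46%). Without knockout replicate 2 there were 2 higher and 0 lower. With all 6 arrays Fetub (0.52, SE 0.13) was the higher one. Igf1, the growth factor gene, differed by -0.72 (SE 0.27) and Serpina1e, a clade A serpin gene, by -1.22 (SE 0.50). Serpina6 differed by 0.59, Apoa1 by -0.16 and Rbp4 by -0.11.

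Genes of the signals that induce the orosomucoids and Lcn2 differed by smaller amounts. Of 30 listed, 29 were measured, 22 with a positive difference and a median of 0.20, and at an unadjusted p under 0.05 there were 7 higher and 0 lower (backgrounds 5.06% and 5.46%). Socs3, the feedback inhibitor induced by STAT3, lay at 5.29, 5.14 and 4.92 in the knockout arrays, against 4.62, 4.56 and 4.67 in the control arrays (log2 difference 0.50, SE 0.14, limma adjusted p = 0.306). Nfkbiz, an NF-kB cofactor needed for Lcn2 induction in mouse cells, lay at 3.73, 4.08 and 3.76 in the knockout arrays, against 3.46, 3.24 and 3.32 in the control arrays (0.51, SE 0.15). Both had groups that did not overlap. Stat3 (0.44, SE 0.14), the interleukin 1 receptor gene Il1r1 (0.39, SE 0.14), the adaptor gene Myd88 (0.65, SE 0.24) and the TNF receptor gene Tnfrsf1a (0.45, SE 0.17) followed.

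The factor genes themselves did not all differ in one direction. Named for their role and not by rank, Cebpb differed by -0.15 (SE 0.17), Cebpd by 0.24 (SE 0.17), the glucocorticoid receptor gene Nr3c1 by 0.08 and the interleukin 6 receptor gene Il6ra by -0.18 (SE 0.20). Il6 was dim on every array, at 1.76, 1.25 and 1.83 in the knockout arrays, against 1.40, 1.42 and 1.36 in the control arrays. All of these had overlapping groups.

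Because neutrophils and macrophages also make lipocalin 2, their markers are given beside it. Of 20 neutrophil markers, 16 had a positive difference with a median of 0.18, and at an unadjusted p under 0.05 there were 5 higher and 0 lower (backgrounds 5.06% and 5.46%). The mean level of the list was 2.80 to 2.87 on the knockout arrays and 2.57 to 2.72 on the control arrays. On every array 12 of the 20 lay under 3.11, among them Ly6g, S100a8, S100a9, Camp, Ltf, Mmp8 and Retnlg. Ly6g lay at 1.95, 1.82 and 2.32 in the knockout arrays, against 2.24, 1.92 and 1.97 in the control arrays. The strongest were the protease genes Mmp8 (0.74, SE 0.16) and Prtn3 (0.75, SE 0.19), then Mmp9, S100a8 (0.46), Retnlg (0.59) and Cxcr2 (0.32). The part of neutrophils in the difference of Lcn2 was not tested.

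Macrophage markers lay higher. With all 6 arrays, all 20 had a positive difference, with a median of 0.76, and at an unadjusted p under 0.05 there were 15 higher and 0 lower (backgrounds 5.06% and 5.46%). The mean level of the list was 5.57 to 6.55 on the knockout arrays and 5.21 to 5.33 on the control arrays, highest in knockout replicate 2 and lowest of the knockout arrays in replicate 3. The orosomucoids and Lcn2 had that order too. The positive acute phase list lay above the control means by a median of 0.346, 0.757 and 0.468 in knockout replicates 1, 2 and 3. By that median replicate 1 was its lowest. All genes of that list are named here for their order, and they had no common one. Apcs, Mt2, Serpina3n, Mt1, Itih3, Itih4, Saa2, Lrg1, Hpx, Hp and Il1rn had the order 2, 1, 3. Steap4, Fgg, Fgb, Fga, Serpina10, Cp and Saa3 had the order 2, 3, 1. The order was 3, 2, 1 for Saa4, Lbp, Hamp and Crp, and 1, 2, 3 for Cd14 and A2m. The strongest macrophage markers were the complement gene C1qa (0.84, SE 0.17), the scavenger receptor gene Marco (0.74, SE 0.18), Cd68 (0.98, SE 0.25), Cd5l (1.40, SE 0.36), the lysozyme gene Lyz2 (0.47, SE 0.13) and the cathepsin gene Ctss (1.14, SE 0.33). Without knockout replicate 2 the median of the macrophage list was 0.47, 19 of 20 were positive and 13 lay higher at an unadjusted p under 0.05 (background 6.12%). The part of macrophages in the differences of the 4 genes was not tested.

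Markers of the other cell types lay nearer to 0. Markers of hepatocytes, the cells that secrete orosomucoids, lay at a median of -0.16, and 6 of 16 were positive; at an unadjusted p under 0.05 there were 1 higher (Asgr2, 0.34) and 5 lower, led by the glucose-6-phosphatase gene G6pc (-0.94) and the transcription factor gene Hnf4a (-0.36), against backgrounds of 5.06% and 5.46%. Without knockout replicate 2, and likewise without knockout replicate 3, there were 0 higher and 3 lower. Their mean level was 10.36 to 10.43 on the knockout arrays and 10.49 to 10.64 on the control arrays. Lymphocyte markers lay at a median of 0.09, 8 of 11 being positive and 1 higher at an unadjusted p under 0.05, Cd3e (0.61). Cholangiocyte markers lay at a median of 0.10, 6 of 8 being positive and 1 higher, Cldn4 (0.48). The background of both counts is 5.06%.

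The genes whose values were most like those of each described gene were taken by Pearson's r over the 6 arrays among genes with a standard deviation of at least 0.5. This left 537 candidates for Orm1 and 536 for each of the other genes, and r is given as a description, since the arrays fall into 2 groups and knockout replicate 2 was the highest in all 4 described genes. For Orm2 they were Fgl1, which encodes a fibrinogen-like protein secreted by hepatocytes (r = 0.992), the surface protein gene Ly6e (0.991), the Fc receptor gamma chain gene Fcer1g (0.990), the endolysosomal nuclease gene Pld4 (0.990) and the myeloid surface protein gene Igsf6 (0.986). Fgl1 lay at 11.18, 11.74 and 10.99 in the knockout arrays, against 10.22, 10.28 and 10.37 in the control arrays.

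For Orm1 the most alike were the proteoglycan gene Sdc3 (r = 0.981), Igsf6 (0.979), the beta-glucan receptor gene Clec7a (0.979), Pld4 (0.978) and Orm3 (0.976). For Orm3 they were Sirpa (0.986), which encodes the receptor for CD47, Cd300ld (0.980), the coagulation factor VIII gene F8 (0.973), the complement gene C1qb (0.972) and the Kupffer cell lectin gene Clec4f (0.970). C1qb and Clec4f are also on the macrophage list. C1qb lay at 7.62, 8.55 and 7.06 in the knockout arrays, against 6.67, 6.93 and 6.66 in the control arrays.

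For Lcn2 the list held none of the genes named for the orosomucoids. The list for Orm3 likewise held none of the genes named for Orm1 or Orm2. The list for Lcn2 held the metallothionein genes Mt1 (r = 0.992) and Mt2 (0.984), the dicarboxylate transporter gene Slc13a3 (0.985), the heme oxygenase gene Hmox1 (0.983) and the RNA helicase gene Ddx39b (0.978). Mt1 lay at 9.86, 10.16 and 9.55 in the knockout arrays, against 8.38, 8.53 and 9.09 in the control arrays. As for Lcn2, control replicate 3 was the highest control array of Mt1. Hmox1 lay at 5.33, 5.58 and 5.24 in the knockout arrays, against 4.36, 4.41 and 4.49 in the control arrays.

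**Figure D5:**
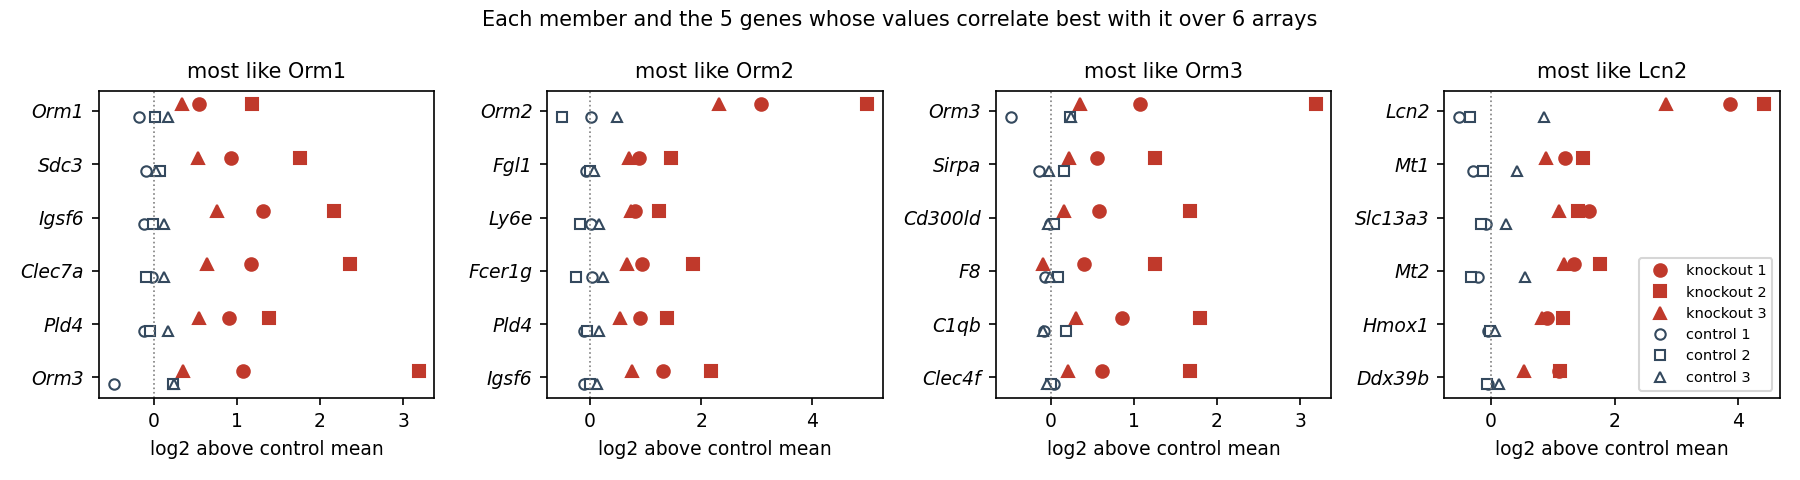
Log2 value above the control mean (x axis) on each array for each described gene (top row of a panel) and the 5 genes most alike by Pearson's r over 6 arrays. Filled red symbols are knockout arrays and open symbols control arrays, with replicates 1, 2 and 3 as circle, square and triangle. Knockout replicate 2 was the highest array for every gene drawn except Slc13a3, for which it was knockout replicate 1.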

How the data were processed

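Liver RNA of 6 samples was measured on 1 array each. The submitters' processing notes name RMA and version 1.4.1 of Affymetrix Expression Console, and the deposited values are log2 expression values of 41345 probe sets, made by the authors. RMA sets arrays to a common distribution, so a shift of most transcripts would not be visible. Genes were named with the platform annotation. Probe sets with 1 symbol (23521) entered the test, those with several (1814) or none listed (16010) did not, and the probe set with the highest mean was used for each of 22180 genes.

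Groups of 3 arrays were compared by a linear model with moderated variances (limma 3.58.1, R 4.3.3), with two-sided p-values adjusted by the Benjamini-Hochberg method over all genes and called below 0.05. Each difference is the knockout mean minus the control mean. The test was checked on simulated data. Identical values were held by 0 pairs of arrays. Whether replicates were separate animals is not stated in the labels. P-values therefore cover only how these samples spread, which may be technical, and the number of arrays limits the precision. The labels do not say whether replicate numbers pair the samples, and the numbers were not used as pairs in the main test.

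The described genes and the 10 gene lists were chosen with earlier results of these data known. Named genes are the described ones, up to 6 per list by the largest moderated statistic, the 5 most alike in pattern, and genes marked as named for another reason. Lists are given as counts and medians. Promoters come from a RefSeq table of GRCm38.p6, which held windows for Orm2, Orm3 and Lcn2, and were aligned with Biopython 1.88. Alternatives were array centring, further quantile normalization, a filter on dim probe sets, other variance priors, array weights, other probe set rules, a replicate block and leaving out each array.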

Additional observations from a re-analysis of the deposited data

How the results depend on the processing

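All 4 differences were positive under every alternative run, 15 for Lcn2, Orm1 and Orm2 and 14 for Orm3, which the filter on dim probe sets removed. Leaving out 1 array gave log2 differences of 3.345 to 4.14 for Lcn2, 2.70 to 4.04 for Orm2, 0.71 to 2.13 for Orm3 and 0.44 to 0.86 for Orm1. The other alternatives moved them little, to 3.70 to 3.73 for Lcn2, 3.46 to 3.51 for Orm2, 1.50 to 1.55 for Orm3 and 0.68 to 0.70 for Orm1. Limma adjusted p-values ranged from 0.00569 to 0.324 for Lcn2, 0.0191 to 0.597 for Orm2, 0.180 to 0.716 for Orm3 and 0.176 to 0.697 for Orm1. Lcn2 passed 0.05 with the filter on dim probe sets (3.70, adjusted p = 0.0351), where fewer genes were tested, and when the variance prior followed intensity (3.70, adjusted p = 0.0251), where the cause was not tested. The number of genes past 0.05, 0 with all arrays, was 15 with the dim filter, 25 with the intensity-dependent prior, and 0 to 66 when 1 array was left out. The most, 66, came without knockout replicate 3, and 3 came without control replicate 3. With the replicate block it was 1, the log2 difference of Lcn2 was 3.70 (adjusted p = 0.146), and the deviations of same-numbered arrays correlated at only 0.00641 to 0.0525 across genes, so the numbers do not pair the samples. With all probe sets tested the confidence interval of Orm3 reached -0.05. The counts of list genes without knockout replicate 2 or 3 were added after seeing the data. The dim signal of Orm3 makes its fold uncertain.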
